A study of Mus musculus with 15 samples.

Results

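The genes described here are 37 DNA repair genes, most of them parts of homologous recombination and of the pathways that feed it. They were taken from a list of gene names, and a gene was a member when the array held a noncontrol probe under its name. The array names 36870 genes, of which 19506 had a probe bright enough to be tested, and all 37 members were among the tested genes. The members have 91 probes, 64 of them tested, and each gene is represented by its brightest tested probe.

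The cells were RAW264.7, an established mouse macrophage-like line that grows from a tumour and keeps dividing in culture. Total RNA was labelled with Cy3 and measured on one-colour Agilent arrays, 15 arrays in 5 groups of 3. The vehicle group carries the solvent labels EtOH and DMSO. The other groups received dexamethasone (DEX), fluticasone furoate (FF) or one of a pair of compounds known only by the codes VSG158 and VSG159, each at 100 nM and starting 1 h before lipopolysaccharide (LPS) at 1 ug per ml for 16 h. The labels class all 4 as glucocorticoids, steroids that bind the glucocorticoid receptor, and LPS, from the outer membrane of bacteria, switches macrophages to an inflammatory state. The treatment protocol with LPS stands under every sample, but the vehicle labels name the solvents alone, so that vehicle cells received LPS rests on that shared text. The series text speaks of duplicates where the labels give 3 replicates, and nothing says that replicates came from separate cultures, so p-values measure the spread between these samples. The study is a single line at 1 dose and 1 time.

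Homologous recombination repairs a double-strand break by copying the sister chromatid. The MRE11, RAD50 and NBN complex senses the break, ATM and ATR signal it, nucleases cut back one strand, and BRCA1, PALB2 and BRCA2 prepare the cut-back strand to search for the matching sequence. The Fanconi anemia proteins open and repair crosslinked DNA with the same machinery. In dividing cells many of these genes are transcribed mainly in S and G2 phase, when a sister chromatid exists, and E2F factors are known regulators of several of them.

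The arrays lay on 2 slides. Every vehicle and VSG158 array was on slide 1, every FF and DEX array on slide 2, and VSG159 was split, with replicate 3 on slide 2 and its other 2 arrays on slide 1. The share of noncontrol spots well above background ran from 39.6%, on VSG158 replicate 2, to 50.4%, and no spot was saturated. Spots flagged as outliers numbered 960 on VSG158 replicate 3, 668 and 639 on VSG159 replicates 1 and 2, and 98 to 294 on the other arrays. Arrays of a group correlated at 0.961 to 0.991. All 11 measured macrophage markers, among them Cd68, Csf1r and Adgre1, were above background in every group, at mean levels of 5.53 to 5.80 above the array's 75th percentile on the log2 scale. All 6 epithelial markers were below background. Of the other cell type markers, 4 to 5 of 7 T cell genes, 1 to 3 of 6 B cell genes, 1 to 2 of 6 fibroblast genes and 1 to 2 of 8 neutrophil and mast cell genes were above background. Cd3e, Cd4, Cd8b1, Lck, Cd22, Dcn and Elane were above it in every group, and Cd3d, Ms4a1, Pax5, Col1a2 and Camp in some groups. Cd79a, Cd79b, Col1a1, Col3a1, Mpo and Kit were below it in every group. The mean level of the B cell genes measured was lower on every steroid array, at -3.33 to -2.66, than on the vehicle arrays, at -2.20 to -1.79. The part of other cell types in the results was not tested.

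The question of the vehicle comparisons is which genes a steroid moves in stimulated macrophages. Most of the repair genes were higher with every steroid. In DEX against vehicle 26 of the 37 members were higher and 4 lower at a Benjamini-Hochberg adjusted p under 0.05 in limma, where 46.3% of all genes tested were called and 23.2% of all genes tested were called higher. With FF 29 were higher and 1 lower, against 42.2% of all genes called and 20.9% higher. With VSG158 28 were higher and 2 lower (44.2% of all genes called, 19.7% higher), and with VSG159 again 28 and 2 (44.1% called, 19.1% higher). On the log2 scale the median difference of the members from vehicle was 1.11 (DEX), 1.47 (FF), 1.30 (VSG158) and 1.41 (VSG159), where the median of all genes tested lay between -0.07 and 0.03. With normexp background correction and the 75th percentile the members' medians were 0.67, 0.81, 0.70 and 0.76 in the same order. These 4 comparisons share the vehicle arrays and are not independent of each other.

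Over the 4 comparisons, 25 members were higher with every steroid, a pattern that 15.6% of all genes tested showed. Another 5 rose with 1 to 3 of the steroids, namely Chek2, Rbbp8, Blm, Wrn and Brip1. Ung was lower with all 4, and Nbn, Mus81 and Fancc were lower with 1 or 2. Brca1, Rad54b and Rad52 were called with none. On single arrays, the median over the members of the difference from the vehicle mean ran from 1.04 to 1.57 on the 12 steroid arrays and from -0.05 to 0.01 on the vehicle arrays. Members whose arrays did not overlap with vehicle numbered 32, 33, 32 and 32 in the same order, where 60%, 57.2%, 52.3% and 50.8% of all genes did not overlap.

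The low signal of several members in vehicle cells limits how large these rises can be said to be. Ankle1, Xrcc3, Fancb and Fancd2 were not well above background on any vehicle array, and Chek1, Exo1, Neil3, Xrcc2, Fanci and Eme1 were above it on 1 of 3. For the first 4 the change is given as a bound, "at least N-fold", against the lowest signal that counts as well above background. That lowest signal is taken over all probes of an array. Fancd2 read above it on each DEX array and was well above background on 1 of them, so a bound can be too high. An adjusted p beside a bound is for the fitted difference, which uses the dim vehicle signals, and does not test the bound. All the members named here passed the filter through steroid groups alone. With the first 4 at their bound the median over the members was 1.03, 1.41, 1.29 and 1.41 for DEX, FF, VSG158 and VSG159, and 19, 20, 19 and 20 members were at least 2-fold higher. Of all genes tested, 3361 of 19504, 3236 of 19505, 3305 of 19505 and 3341 of 19499 were called at 2-fold or more in the same order. Those counts take both directions and use no bounds. The remaining 27 members were above background on at least 2 vehicle arrays, and of them 16, 19, 18 and 18 were higher and 4, 1, 2 and 2 lower, with medians of 0.68, 0.79, 0.72 and 0.74. No share was computed over all genes that bright in vehicle. The shares of all genes given above include genes dim in vehicle, so they are no background for these counts.

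**Figure D1:**
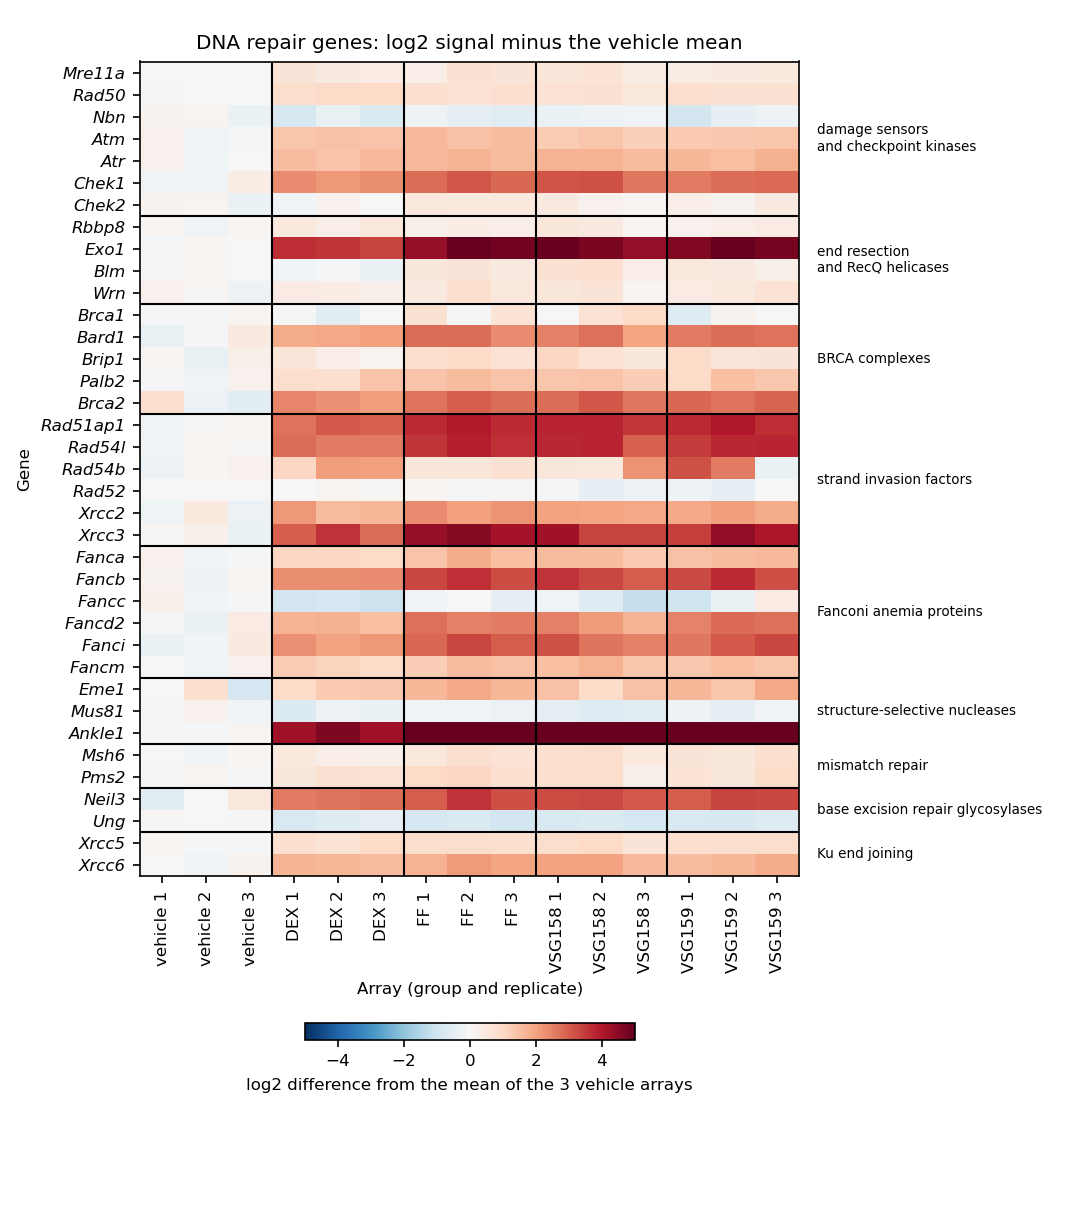
The log2 signal of each of the 37 genes on each of the 15 arrays, minus that gene's mean over the 3 vehicle arrays, with genes in rows by role and arrays in columns by group. Most rows are red on all 12 steroid arrays, Ankle1 and Exo1 are the darkest (differences above 5 share the darkest colour) from vehicle signals at or near background, and Ung, Nbn, Mus81 and Fancc are pale blue.

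The slides bear on these comparisons unequally. Vehicle, VSG158 and part of VSG159 shared slide 1, and within that slide 29 members were called with VSG158 and 29 with VSG159. No vehicle array lay on the slide of DEX and FF, and with slide as a fixed block, which links the slides through VSG159 alone, 26 members were called with each of them. With array position as a further term 0 members were called with DEX and 10 with FF, while the medians over the members were 1.27 and 1.78.

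Because most of these genes rose with every steroid, the promoter windows of the members were read from RefSeq (GRCm38.p6), 250 bases before to 50 bases after the annotated start. Members that fell or were not called were read too. Of the 37 members 29 matched, with 30 windows, since Rad54l has 2 starts. Nbn, Rad50, Xrcc2, Exo1, Fancd2, Rad54b, Rbbp8 and Wrn have no entry in the table. An E2F site, searched on both strands as TTTCCCGC, TTTGGCGC, TTTGCCGC or TTTCGCGC, was found in 5 member windows (16.7% of 30) and in 744 of 32851 windows of all genes (2.26%). Only these exact letters counted, so a window without a match may still hold another form of the site. A CCAAT box (CCAAT on either strand) was in 19 member windows (63.3%) and in 37.4% of all windows. The CHR element, a cell cycle element searched as TTTGAA on either strand, was in 3 member windows (10%) and in 17.9% of all. Letters in a window are a description and not evidence that a factor binds there. The 5 windows with an E2F match are shown because they include genes from 4 different roles, with the match in capitals and each window 5′ to 3′ on the strand of its gene:
Bard1, chr1:71102923-71103222, minus strand: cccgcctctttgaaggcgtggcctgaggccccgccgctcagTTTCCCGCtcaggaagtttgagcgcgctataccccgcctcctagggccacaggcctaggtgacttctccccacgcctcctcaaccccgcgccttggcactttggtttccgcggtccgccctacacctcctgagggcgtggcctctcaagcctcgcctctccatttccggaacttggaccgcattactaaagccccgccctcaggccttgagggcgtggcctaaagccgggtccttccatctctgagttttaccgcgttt
Brca2, chr5:150522371-150522670, plus strand: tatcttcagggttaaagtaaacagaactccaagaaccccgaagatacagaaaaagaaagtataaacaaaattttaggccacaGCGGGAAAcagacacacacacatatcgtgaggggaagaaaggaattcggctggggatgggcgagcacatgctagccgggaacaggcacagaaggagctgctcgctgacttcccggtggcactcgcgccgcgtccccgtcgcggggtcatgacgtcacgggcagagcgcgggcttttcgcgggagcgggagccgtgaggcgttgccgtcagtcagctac
Chek2, chr5:110839733-110840032, plus strand: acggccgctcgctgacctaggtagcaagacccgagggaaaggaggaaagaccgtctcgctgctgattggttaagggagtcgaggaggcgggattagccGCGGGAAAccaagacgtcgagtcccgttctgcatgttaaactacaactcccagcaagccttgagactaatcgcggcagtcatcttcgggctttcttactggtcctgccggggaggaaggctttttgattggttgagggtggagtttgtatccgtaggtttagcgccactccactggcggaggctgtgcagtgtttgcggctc
Msh6, chr17:87974800-87975099, plus strand: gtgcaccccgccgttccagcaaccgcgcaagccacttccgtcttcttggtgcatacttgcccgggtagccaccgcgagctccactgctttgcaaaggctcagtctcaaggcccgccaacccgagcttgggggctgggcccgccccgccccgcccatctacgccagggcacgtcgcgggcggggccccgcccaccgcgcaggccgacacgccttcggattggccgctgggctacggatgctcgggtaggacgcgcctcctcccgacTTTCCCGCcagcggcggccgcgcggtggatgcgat
Xrcc6, chr15:82016119-82016418, plus strand: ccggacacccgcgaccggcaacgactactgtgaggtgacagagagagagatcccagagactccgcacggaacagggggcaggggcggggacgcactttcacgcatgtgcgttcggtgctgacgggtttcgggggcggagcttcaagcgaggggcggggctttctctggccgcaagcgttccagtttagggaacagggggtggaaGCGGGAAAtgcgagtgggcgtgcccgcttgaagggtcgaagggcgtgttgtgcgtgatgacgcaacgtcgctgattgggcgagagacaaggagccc

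All 5 matches were the same letters, TTTCCCGC or their reverse, GCGGGAAA. They began at position -209 from the start in Bard1, -168 in Brca2, -152 in Chek2, 16 in Msh6 and -46 in Xrcc6. Of these genes Bard1, Brca2, Msh6 and Xrcc6 rose with every steroid and Chek2 with FF. Of the 22 windows of members higher with every steroid 4 had a match, and of the 8 other member windows 1 had.

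Signal levels are given below on the log2 scale relative to the 75th percentile of the array, so that 0 is the brightness of the probe at that percentile, and differences are on the same log2 scale. Levels of different genes rest on different probes and are not compared. Probe positions are those of the array's files, in mouse build mm9, and the exon or UTR a probe lies in was not analysed here. Standard errors come from the fit over all 15 arrays, and n is 3 per group throughout.

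Among the damage sensors and checkpoint kinases, 5, 6, 5 and 5 of 7 members were higher for DEX, FF, VSG158 and VSG159. Chek1, the kinase that halts the cell cycle when replication stalls (probe at chr9:36517425-36517484, minus strand), read -4.75, -4.78 and -4.23 in vehicle and -2.21, -2.44 and -2.24 with DEX. With FF it read -1.78, -1.47 and -1.72, with VSG158 -1.46, -1.40 and -1.97, and with VSG159 -1.97, -1.80 and -1.76. All 12 steroid arrays lay above the 3 vehicle arrays, and the differences from vehicle were 2.29, 2.93, 2.98 and 2.74 (SE 0.18) for DEX, FF, VSG158 and VSG159, with adjusted p of 1.14e-06 or lower. Since Chek1 was above background on 1 vehicle array, the size of these differences is uncertain.

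Atr, the apical kinase that activates CHEK1 (chr9:95851956-95852015, plus strand), read -0.17, -0.59 and -0.40 in vehicle, 1.16, 1.05 and 1.22 with DEX and 1.22, 1.33 and 1.20 with FF. Its levels were 1.36, 1.34 and 1.20 with VSG158 and 1.28, 1.11 and 1.40 with VSG159. The steroid groups overlapped with each other and not with vehicle, and the differences of 1.53 to 1.69 (SE 0.11) correspond to 2.88-fold to 3.22-fold. Atm, which signals double-strand breaks, was 1.30 to 1.54 higher. Rad50 and Mre11a, which hold and trim broken ends, rose less, Rad50 by 0.67 to 0.94 and Mre11a by 0.44 to 0.57. With median scaling Mre11a was called with none of them (adjusted p of 0.0931 or higher), and with slide as a fixed block not with DEX (0.12) or FF (0.0856). As the mean over its tested probes Atr was called with VSG158 alone (adjusted p of 0.071 or higher with the others). Chek2, the effector of ATM, was called with FF alone, at 0.50 (adjusted p = 0.0172), and differed by 0.02, 0.27 and 0.32 with DEX, VSG158 and VSG159. The FF call on Chek2 was lost without vehicle replicate 3 (adjusted p = 0.07), with median scaling, normexp correction or the value table (0.0718 to 0.275), without the filter (0.0554) and with slide as a fixed (0.437) or random (0.176) block.

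Nbn, the remaining subunit of the break sensor, went against its partners. It read -1.02, -1.08 and -1.54 in vehicle, -2.0, -1.58 and -1.90 with DEX, and -2.12, -1.63 and -1.47 with VSG159. With FF its levels were -1.47, -1.65 and -1.75 and with VSG158 -1.53, -1.47 and -1.37. DEX did not overlap with vehicle and the other steroids did. Nbn fell by 0.62 with DEX (adjusted p = 0.0166) and by 0.53 with VSG159 (adjusted p = 0.0355), and both calls were lost without vehicle replicate 1, without vehicle replicate 2, or without replicate 1 of the steroid group, with adjusted p of up to 0.15. The DEX call was also lost without DEX replicate 3 and the VSG159 call without VSG159 replicate 2, and with median scaling Nbn was called with neither (adjusted p = 0.0795 and 0.217). The VSG159 call was lost as well without the filter (0.0905) and with the replicate block (0.0526).

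End resection had 1 strong responder. Exo1, the long-range resection exonuclease (chr1:177838682-177838741, plus strand), read -4.72, -4.49 and -4.61 in vehicle, with 1 of these arrays above background. It read -0.92, -1.03 and -1.21 with DEX, -0.24, 0.40 and 0.20 with FF, 0.41, 0.09 and -0.22 with VSG158, and 0.02, 0.57 and 0.17 with VSG159. The DEX arrays stood between vehicle and the other steroids without overlap with either. Exo1 was 3.55, 4.73, 4.70 and 4.86 higher in the order DEX, FF, VSG158 and VSG159 (SE 0.20, adjusted p of 1.08e-07 or lower).

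Blm, a RecQ helicase that unwinds recombination intermediates (chr7:87603775-87603834, minus strand), read 0.01, 0.19 and 0.12 in vehicle and -0.04, 0.07 and -0.23 with DEX, 2 groups that overlapped. Its levels were 0.65, 0.75 and 0.54 with FF, 0.87, 0.94 and 0.42 with VSG158, and 0.63, 0.54 and 0.41 with VSG159, all above both. The differences from vehicle were -0.17 with DEX (adjusted p = 0.324) and 0.54, 0.64 and 0.42 with the others (adjusted p = 0.00652, 0.00225 and 0.0242). The VSG159 call was lost without vehicle replicate 1 or 3 or VSG159 replicate 1 or 2, at an adjusted p of up to 0.085, without the filter (0.0801) and within slide 1 (0.0585). With median scaling Blm was called with none of the 4 against vehicle (adjusted p of 0.105 or higher).

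The other genes of this role moved little. Rbbp8, which starts resection, was called with DEX, at 0.45 (adjusted p = 0.0119), and with VSG158, at 0.37 (adjusted p = 0.0337), and differed by 0.33 and 0.31 with FF and VSG159. Wrn, a helicase with an exonuclease domain, was called with FF, at 0.61 (adjusted p = 0.0117), and with VSG159, at 0.56 (adjusted p = 0.0185). Leaving out single arrays ended each of these calls: vehicle replicate 2 for Rbbp8 with DEX (adjusted p = 0.055), the same array or VSG158 replicate 1 or 2 for Rbbp8 with VSG158 (up to 0.138), vehicle replicate 3 or FF replicate 2 for Wrn with FF (up to 0.055), and vehicle replicate 3 or VSG159 replicate 3 for Wrn with VSG159 (up to 0.078). Median scaling, the mean over tested probes and, for DEX and FF, slide as a block also ended them, with adjusted p of 0.0606 to 0.455. The VSG158 call on Rbbp8 was lost as well within slide 1 (0.107), without the filter (0.11) and with the replicate block (0.0573). The VSG159 call on Wrn was lost with slide as a fixed block (0.0564), within slide 1 (0.116) and without the filter (0.0533).

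In the BRCA complexes, the partners of BRCA1 rose while the probe used for Brca1 itself was not called. Bard1, which forms the ubiquitin ligase with BRCA1 (chr1:71074192-71074251, minus strand), read -4.43, -4.16 and -3.59 in vehicle and -2.22, -2.14 and -2.0 with DEX. It read -1.26, -1.25 and -1.69 with FF, -1.54, -1.29 and -2.07 with VSG158 and -1.45, -1.28 and -1.33 with VSG159. No steroid array reached down to the vehicle range, and Bard1 was 1.94, 2.66, 2.43 and 2.71 higher with DEX, FF, VSG158 and VSG159 (SE 0.23, adjusted p of 3.12e-05 or lower).

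Brca2, a mediator of strand invasion that binds single-stranded DNA (chr5:151372225-151372284, plus strand), read -2.46, -3.59 and -3.83 in vehicle, so vehicle replicate 1 lay above the others. Its levels were -0.86, -0.99 and -1.21 with DEX, -0.58, -0.32 and -0.50 with FF, -0.50, -0.18 and -0.64 with VSG158, and -0.43, -0.58 and -0.40 with VSG159. All were above the vehicle arrays, by 2.27, 2.82, 2.85 and 2.82 (SE 0.28, adjusted p of 4.54e-05 or lower). Palb2, the bridge between BRCA1 and BRCA2, was 1.03, 1.47, 1.34 and 1.26 higher. Brip1, a helicase that binds BRCA1, was called with FF (0.83), VSG158 (0.77) and VSG159 (0.73) and not with DEX (0.37, adjusted p = 0.117). With median scaling, normexp correction or the value table Brip1 was not called with VSG158 or VSG159 (adjusted p of 0.0523 to 0.457). With normexp correction Palb2 was not called with DEX (0.0544 and 0.0751), nor, after quantile normalization, with VSG158 (0.078).

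Brca1 read -1.28, -1.23 and -1.03 in vehicle, -1.30, -1.72 and -1.20 with DEX and -0.44, -1.23 and -0.51 with FF on its brightest probe (chr11:101386419-101386478, minus strand). With VSG158 it read -1.20, -0.46 and -0.17 and with VSG159 -1.81, -1.02 and -1.21. Every steroid group overlapped with vehicle, and the differences were -0.22, 0.45, 0.57 and -0.16 (SE 0.30, adjusted p of 0.146 or higher). Without VSG158 replicate 1 the VSG158 difference on Brca1 was called (adjusted p = 0.03). The second tested Brca1 probe lies farther toward the 3′ end of the gene, at chr11:101350409-101350468, and was higher with all 4 steroids, by 1.06, 1.45, 1.16 and 1.70 for DEX, FF, VSG158 and VSG159. So the array does not give 1 answer for Brca1.

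The strand invasion factors included some of the clearest rises. Rad51ap1, which stimulates strand invasion (chr6:126873482-126873541, minus strand), read -3.06, -2.80 and -2.75 in vehicle and -0.16, 0.21 and 0.06 with DEX. It read 0.87, 1.09 and 0.88 with FF, 0.94, 0.94 and 0.68 with VSG158 and 0.85, 1.15 and 0.80 with VSG159. The DEX arrays again lay between vehicle and the other steroids, and the differences from vehicle were 2.91, 3.82, 3.72 and 3.80 (SE 0.14), or 7.49-fold with DEX and 13.2-fold to 14.1-fold with the others. This gene was above background on all vehicle arrays.

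Rad54l, a motor protein that moves along DNA during strand invasion (chr4:115769618-115769677, minus strand), read -3.90, -3.68 and -3.71 in vehicle, -0.98, -1.18 and -1.17 with DEX and -0.18, 0.11 and -0.11 with FF. With VSG158 it read 0.03, 0.04 and -0.81 and with VSG159 -0.26, 0.00 and 0.05, so VSG158 replicate 3 was the lowest of the other steroids' arrays and still above DEX. Its differences from vehicle were 2.66, 3.70, 3.52 and 3.69 (SE 0.20). Xrcc3, which acts in strand invasion and in the resolution of joined molecules (chr12:113041404-113041463, minus strand), read -6.35, -6.16 and -6.73 in vehicle, below background on all 3 arrays. Xrcc3 read -3.41, -2.81 and -3.62 with DEX, -2.07, -1.83 and -2.27 with FF, -2.22, -3.02 and -3.03 with VSG158 (2 of 3 arrays above background) and -2.96, -1.97 and -2.37 with VSG159. It was at least 2.36-fold, 5.53-fold, 3.40-fold and 4.25-fold higher in the same order (adjusted p of the fitted differences, not of the bounds, 6.54e-06 or lower). Xrcc2, another gene needed for homologous recombination, was 1.79 to 2.21 higher.

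Rad54b and Rad52 stood apart from this group. Rad54b, a relative of RAD54, read 0.09, 0.50 and 0.60 in vehicle, 1.44, 2.49 and 2.47 with DEX, 1.02, 0.99 and 1.15 with FF, 0.96, 0.91 and 2.66 with VSG158, and 3.57, 2.98 and 0.08 with VSG159. Apart from FF, its treated groups scattered widely, and no difference was called (adjusted p of 0.0713 or higher). Its highest readings were on VSG158 replicate 3 and VSG159 replicates 1 and 2, the arrays with the most outlier spots. Whether array quality plays a part was not tested. With slide as a fixed block Rad54b was called higher with DEX (4.93, adjusted p = 0.000898), FF (3.86, 0.00356) and VSG159 (2.88, 0.000601), and within slide 1 with VSG159 (0.00566). VSG159 replicate 3, the array of that group on slide 2, read as low as vehicle, and without it Rad54b was 2.88 higher with VSG159 (adjusted p = 0.000594) and 1.73 higher with DEX (adjusted p = 0.007). Rad52, an annealing factor, read -0.68, -0.70 and -0.68 in vehicle, -0.70, -0.55 and -0.63 with DEX, -0.60, -0.77 and -0.62 with FF, -0.79, -1.09 and -0.96 with VSG158, and -0.93, -1.09 and -0.71 with VSG159. Its differences were 0.06, 0.02, -0.26 and -0.22 (adjusted p of 0.0712 or higher). Without VSG159 replicate 3 Rad52 was called lower with VSG158 and with VSG159, with adjusted p down to 0.022, and without VSG158 replicate 1 with VSG158. With slide as a fixed block Rad52 was also called lower with VSG158 (0.0378) and VSG159 (0.0222).

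Of the 6 Fanconi anemia genes 5 rose with every steroid. Fancb, a subunit of the core ubiquitin ligase (chrX:161434946-161435005, plus strand), read -5.22, -5.67 and -5.30 in vehicle, below background on all 3. It read -3.05, -3.08 and -3.03 with DEX, -2.06, -1.76 and -2.13 with FF, -1.78, -2.05 and -2.35 with VSG158 and -2.10, -1.68 and -2.18 with VSG159. Fancb was therefore at least 2.76-fold higher with DEX and at least 5.81-fold, 5.51-fold and 5.79-fold higher with FF, VSG158 and VSG159 (adjusted p of the fitted differences, not of the bounds, 1.02e-06 or lower).

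Fanca, another core subunit (chr8:125792210-125792269, minus strand), was above background throughout and read -0.77, -1.11 and -1.05 in vehicle and 0.06, 0.07 and -0.01 with DEX. Its levels were 0.46, 0.87 and 0.55 with FF, 0.61, 0.55 and 0.32 with VSG158, and 0.51, 0.58 and 0.66 with VSG159. These were 1.02, 1.60, 1.47 and 1.56 above vehicle (SE 0.13), with DEX apart from both sides. As the mean over its tested probes Fanca differed by 0.08 with DEX (adjusted p = 0.69).

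Fancd2, a subunit of the complex that the core ligase modifies (chr6:113541170-113541229, plus strand), read -5.80, -6.07 and -5.34 in vehicle and -4.00, -3.95 and -4.22 with DEX, above background on 0 and 1 of the 3 arrays. It read -2.97, -3.23 and -3.20 with FF, -3.23, -3.60 and -4.05 with VSG158, and -3.26, -2.91 and -3.00 with VSG159. Fancd2 was at least 2.62-fold higher with FF and at least 2.76-fold with VSG159 (adjusted p of the fitted differences, not of the bounds, 1.32e-06 and 1.05e-06). With DEX and VSG158 it was above background on 1 of 3 arrays each, so no bound is claimed for it there. Bounds of 1.38-fold (DEX) and 1.86-fold (VSG158) did enter the medians and 2-fold counts with members at their bound, given above. Fancd2 was called higher with both (adjusted p = 6.16e-05 and 8.09e-06, the DEX call lost with normexp correction, 0.0661 and 0.188). Fanci, its partner, was 2.16 to 3.08 higher, and Fancm, the translocase that anchors the core complex, 1.11 to 1.55 (not called with DEX as the mean over its tested probes, adjusted p = 0.106). Fancc was the exception. It read -2.81, -3.21 and -3.15 in vehicle, -3.96, -3.94 and -4.11 with DEX, -3.28, -3.05 and -3.46 with FF, -3.27, -3.70 and -4.19 with VSG158, and -4.07, -3.41 and -2.63 with VSG159. Fancc fell by 0.95 with DEX (adjusted p = 0.0267) and differed by -0.20, -0.66 and -0.31 with the others (adjusted p of 0.11 or higher). The Fancc call with DEX was lost without vehicle replicate 1 or any 1 DEX array (adjusted p up to 0.09) and with other scalings, normexp correction, the value table or no filter (0.0584 to 0.316), and without VSG159 replicate 3 Fancc was also called with VSG158 (adjusted p = 0.038) and VSG159 (0.049). With slide as a fixed block the DEX call held. Fancc was then also called lower with FF (-1.31, adjusted p = 0.0332), VSG158 (-0.66, 0.0383) and VSG159 (-0.68, 0.0497).

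**Figure D2:**
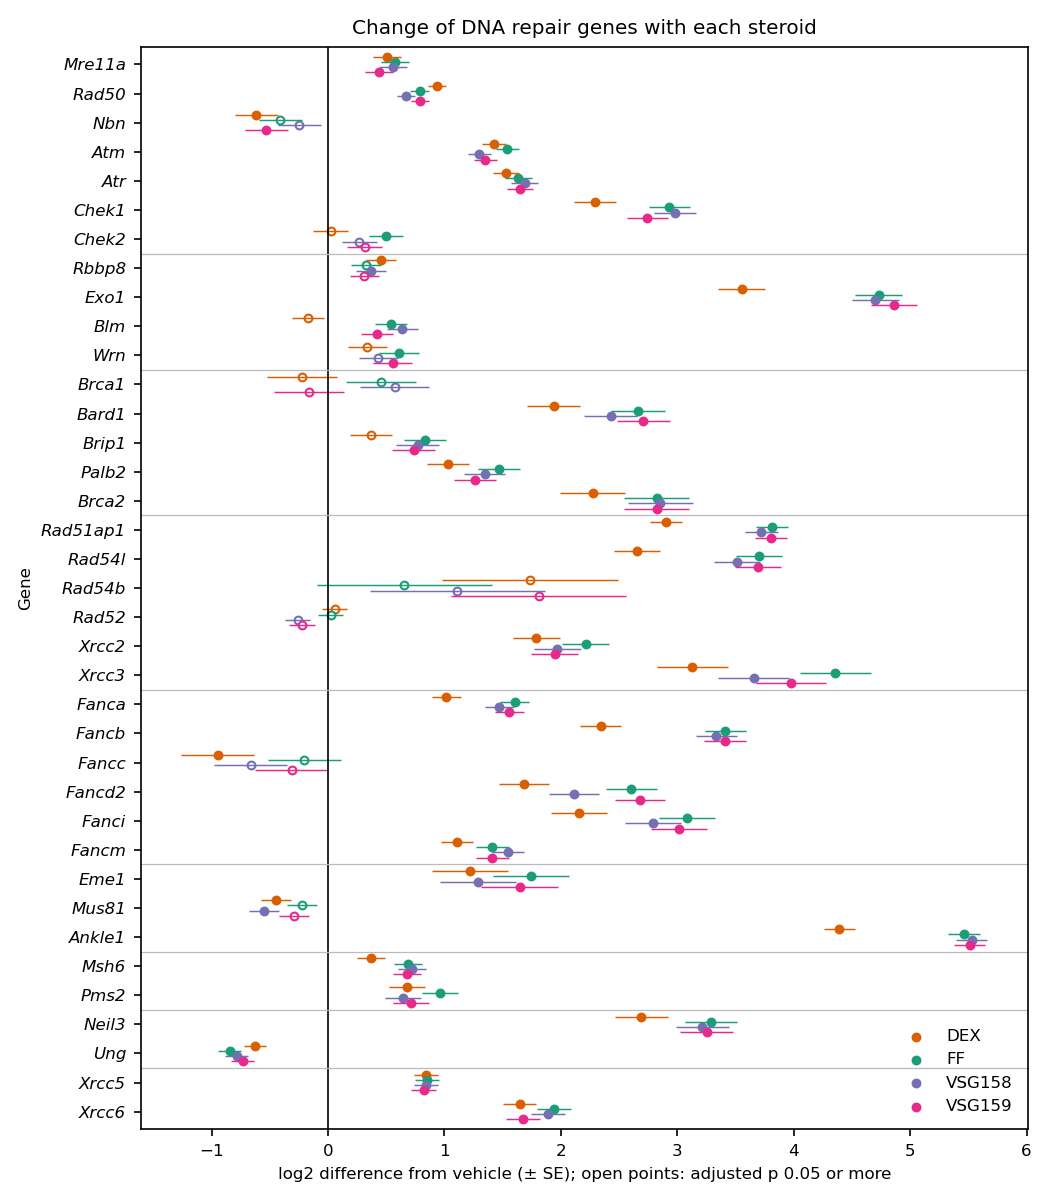
The log2 difference of each gene from vehicle with each of the 4 steroids, with bars of 1 SE from the fit over all 15 arrays (n = 3 per group) and open points where the adjusted p was 0.05 or more. For Ankle1, Xrcc3, Fancb and Fancd2 the point rests on vehicle signals below background, and the orange DEX points of Exo1, Blm, Rad54l, Fancb and Ankle1 lie to the left of the other 3.

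The structure-selective nucleases, which cut branched DNA, held the member with the largest fitted rise. Ankle1, an endonuclease with ankyrin repeats that is known from blood-forming cells (chr8:73933743-73933802, plus strand), read -6.24, -6.23 and -6.03 in vehicle, below background on all 3 arrays. It read -1.92, -1.49 and -1.92 with DEX, -0.82, -0.61 and -0.68 with FF, -0.68, -0.60 and -0.64 with VSG158, and -0.82, -0.42 and -0.74 with VSG159. Ankle1 was at least 6.71-fold higher with DEX and at least 14.1-fold, 14.7-fold and 14.6-fold higher with FF, VSG158 and VSG159 (adjusted p of the fitted differences, not of the bounds, 2.82e-09 or lower). A further Ankle1 probe, also below background in vehicle alone, was called higher with all 4, while the remaining one was below background on all DEX arrays too and gives no DEX comparison.

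Eme1 and Mus81 form 1 nuclease, and Eme1 was called higher where Mus81 was lower or not called. Eme1, the regulatory subunit, read -4.71, -3.93 and -5.56 in vehicle, -3.75, -3.42 and -3.38 with DEX, -3.09, -2.81 and -3.08 with FF, -3.26, -3.81 and -3.26 with VSG158, and -3.08, -3.36 and -2.82 with VSG159. It was 1.22, 1.74, 1.29 and 1.64 higher (SE 0.33, adjusted p of 0.00959 or lower), with 1 of 3 vehicle arrays above background. With slide as a fixed block Eme1 was not called with DEX (0.81, adjusted p = 0.294) or FF (1.34, 0.101), nor with DEX with slide as a random block (0.101). With normexp correction and the 75th percentile it was 0.26 to 0.40 higher with DEX, VSG158 and VSG159, without a call (0.0661 to 0.226). Mus81, the catalytic subunit (chr19:5483932-5483991, minus strand), read -0.34, -0.08 and -0.44 in vehicle, -0.99, -0.59 and -0.64 with DEX, -0.47, -0.49 and -0.59 with FF, -0.73, -0.94 and -0.83 with VSG158, and -0.55, -0.73 and -0.46 with VSG159. Every steroid array was below every vehicle array. Mus81 fell by 0.45 with DEX (adjusted p = 0.0132) and by 0.55 with VSG158 (adjusted p = 0.0042), while -0.23 with FF and -0.29 with VSG159 were not called. Without vehicle replicate 2 or DEX replicate 1 the DEX call on Mus81 was lost (adjusted p up to 0.061), and with median scaling both calls were (0.134 and 0.0599).

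The mismatch repair members rose less than 2-fold. Msh6, which recognises mismatched bases, read 1.94, 1.79 and 2.01 in vehicle, 2.42, 2.25 and 2.18 with DEX, 2.45, 2.70 and 2.65 with FF, 2.71, 2.79 and 2.41 with VSG158, and 2.57, 2.48 and 2.72 with VSG159. It was 0.37 higher with DEX (adjusted p = 0.0248, lost without vehicle replicate 1 or 2 or DEX replicate 1, up to 0.093) and 0.69, 0.72 and 0.68 with the others. Pms2, a subunit of the mismatch nuclease, read -1.18, -1.01 and -1.21 in vehicle, -0.57, -0.38 and -0.41 with DEX, -0.14, -0.10 and -0.29 with FF, -0.34, -0.25 and -0.88 with VSG158, and -0.46, -0.58 and -0.23 with VSG159. Its differences were 0.68, 0.96, 0.64 and 0.71 (SE 0.16, adjusted p of 0.00496 or lower), and its lowest steroid array, -0.88, was VSG158 replicate 3. With slide as a fixed block neither gene was called with DEX (Pms2 0.40, adjusted p = 0.258, and Msh6 0.18, 0.515) or FF (Pms2 0.68, 0.0703, and Msh6 0.50, 0.0877), while the calls with VSG159 and VSG158 held. With median scaling neither was called with DEX (0.0888 and 0.325) or VSG158 (0.132 and 0.069).

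The 2 glycosylases of base excision repair separated. Neil3, which acts on oxidised bases in replicating DNA (chr8:54672243-54672302, minus strand), read -5.40, -4.91 and -4.36 in vehicle, -2.27, -2.21 and -2.11 with DEX and -1.85, -1.28 and -1.67 with FF. With VSG158 it read -1.62, -1.59 and -1.81 and with VSG159 -1.86, -1.51 and -1.54. The DEX arrays lay between vehicle and the others, and the differences of Neil3 from vehicle were 2.69, 3.29, 3.22 and 3.25 (SE 0.23, 1 of 3 vehicle arrays above background). Ung, the uracil glycosylase (chr5:114588731-114588790, plus strand), read 8.61, 8.54 and 8.48 in vehicle, 7.77, 7.92 and 8.06 with DEX, 7.72, 7.81 and 7.57 with FF, 7.77, 7.86 and 7.65 with VSG158, and 7.80, 7.75 and 7.89 with VSG159. All 12 steroid arrays lay below vehicle, by 0.63, 0.85, 0.78 and 0.73 (SE 0.10, adjusted p of 0.000289 or lower). Of the 60 bases of this Ung probe, 34 form an uninterrupted GT or CA repeat, and whether its bright signal comes from Ung alone was not tested.

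Both Ku genes, whose products bind broken ends for nonhomologous end joining, rose. Xrcc6 (Ku70, chr15:81870452-81870511, plus strand) read 1.31, 1.09 and 1.44 in vehicle, 2.99, 2.94 and 2.85 with DEX, 3.02, 3.40 and 3.24 with FF, 3.30, 3.31 and 2.90 with VSG158, and 2.81, 2.93 and 3.13 with VSG159. It was 1.65, 1.94, 1.89 and 1.68 higher, 3.13-fold to 3.84-fold, with no overlap with vehicle. The FF arrays lay above the DEX arrays, and both overlapped with VSG158 and VSG159. Xrcc5 (Ku80) read -0.49, -0.70 and -0.70 in vehicle, 0.23, 0.07 and 0.34 with DEX, 0.27, 0.24 and 0.15 with FF, 0.25, 0.36 and 0.04 with VSG158, and 0.17, 0.16 and 0.24 with VSG159. Its differences of 0.82 to 0.85 (SE 0.10) were within 1 SE of each other.

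**Figure D3:**
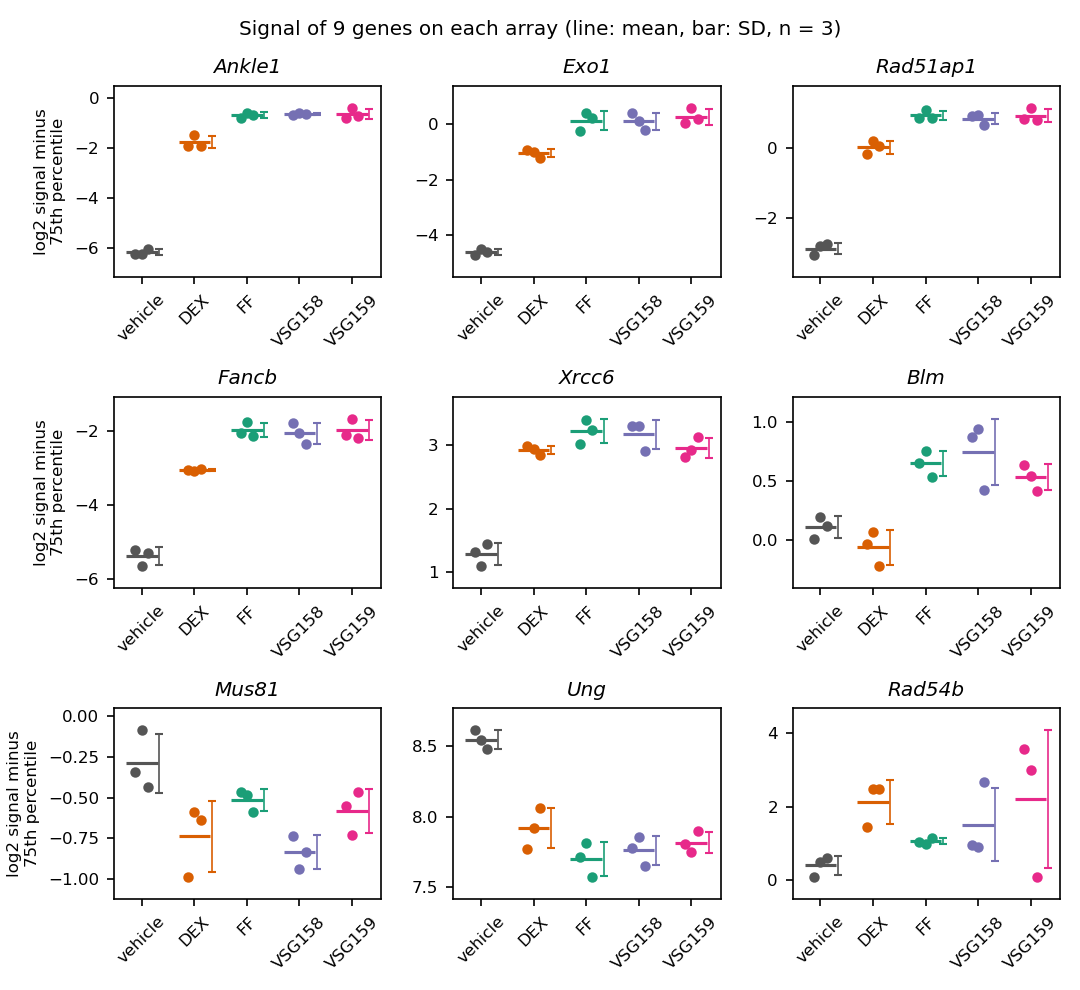
The log2 signal of 9 genes on each array minus the array's 75th percentile, by group, with a line at the mean and a bar of 1 SD (n = 3). Vehicle lies lowest for Ankle1, Exo1, Rad51ap1, Fancb and Xrcc6 and highest for Mus81 and Ung, DEX lies between vehicle and the other steroids for the first 4, and Rad54b scatters within groups.

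The tested probes of a gene did not always move alike. The 19 members with several tested probes have 27 besides the one used. With DEX, 9 of these were called in the same direction as the probe used, 2 in the opposite direction, 6 had the same sign without both being called and 10 the opposite sign without both being called. With FF these counts were 15, 0, 6 and 6. A second Fanca probe (chr8:125813811-125815354, minus strand) fell by 0.86 with DEX and by 0.70 with VSG159, and a Rad51ap1 probe for another transcript (chr6:126878744-126878803, minus strand) fell by 1.64 with DEX, while another Rad51ap1 probe rose by 2.23 to 3.38. The Brip1 probe at chr11:85871768-85871827, below background on all vehicle arrays, was called higher with all 4 steroids. So a gene's value here speaks for 1 probe and the transcripts it matches.

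**Figure D4:**
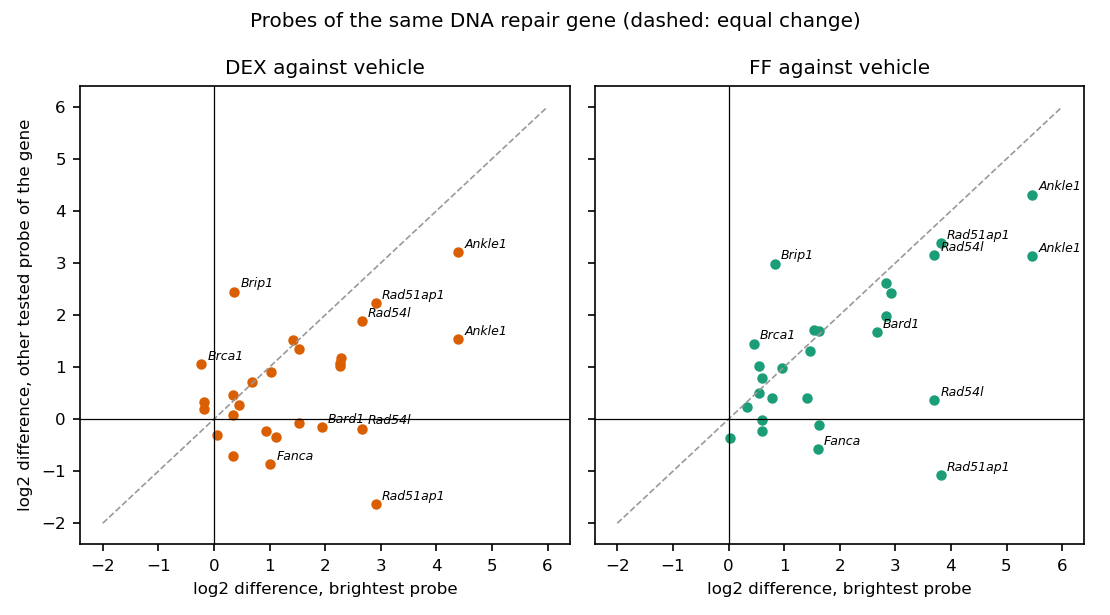
The log2 difference from vehicle on the other tested probes of a gene (vertical axis) against that on the brightest probe (horizontal axis), for DEX and FF, with 27 probes of 19 genes as points and a dashed line of equal change. Points of Ankle1, Rad54l and Rad51ap1 lie at the upper right of both panels, and with DEX probes of Fanca and Rad51ap1 lie below 0.

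Between the compounds, all at the same dose and time, 6 pairs were compared. The differences lay between DEX and the rest. FF differs from DEX, among other changes, in the furoate ester that gives it its name, while the structures of the coded compounds are not given in the labels. Against DEX, 9 members were called with FF and all 9 were higher (4.14% of all genes tested were called, 1.86% higher and 2.28% lower). With VSG158 5 were called, all higher (1.99% of all genes, 1.06% higher and 0.933% lower), and with VSG159 8, all higher (5.55% of all genes, 1.44% higher and 4.11% lower). The 3 comparisons share the DEX arrays.

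Ankle1 was higher than with DEX by 1.07 with FF, 1.13 with VSG158 and 1.12 with VSG159 (SE 0.14, adjusted p = 0.00272, 0.00347 and 0.00189). Exo1 was 1.18, 1.15 and 1.31 higher (SE 0.20, adjusted p = 0.0117, 0.0153 and 0.00537). Rad51ap1 was 0.91, 0.82 and 0.90 higher (SE 0.14), Fancb 1.07, 1.00 and 1.07 (SE 0.18) and Blm 0.71, 0.81 and 0.60 (SE 0.14), each called with all 3 compounds. The FF and DEX arrays of these 5 genes, printed above, did not overlap, and neither did those of VSG158 or VSG159 and DEX.

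Rad54l, Fanca and Fancd2 were called with FF and VSG159. Rad54l was 1.05 and 1.04 higher, and 0.86 higher with VSG158 (95% confidence interval 0.43 to 1.29, adjusted p = 0.051). Fanca was 0.59 and 0.54 higher and Fancd2 0.92 and 1.00. Xrcc3 was called with FF alone, at 1.23 (adjusted p = 0.0467), and differed by 0.52 (interval -0.14 to 1.19) with VSG158 and 0.85 (0.19 to 1.51) with VSG159. The other tested probe for a second Brca2 transcript was higher than with DEX with all 3 compounds, by 1.53, 1.44 and 1.45, where the probe used for Brca2 differed by 0.55, 0.58 and 0.55 without a call.

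No damage sensor, BRCA complex, mismatch repair, glycosylase or Ku member was called against DEX. Chek1 was 0.64 higher with FF (interval 0.25 to 1.03, adjusted p = 0.0665) and Xrcc5 differed by 0.01, 0.00 and -0.02. Of the 37 members 30 lay farther from vehicle with FF than with DEX, 30 with VSG158 and 28 with VSG159. These counts take rises and falls alike, and their share over all genes was not computed. Members whose arrays did not overlap with DEX numbered 25, 15 and 19, against 38.4%, 22% and 26.8% of all genes.

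**Figure D5:**
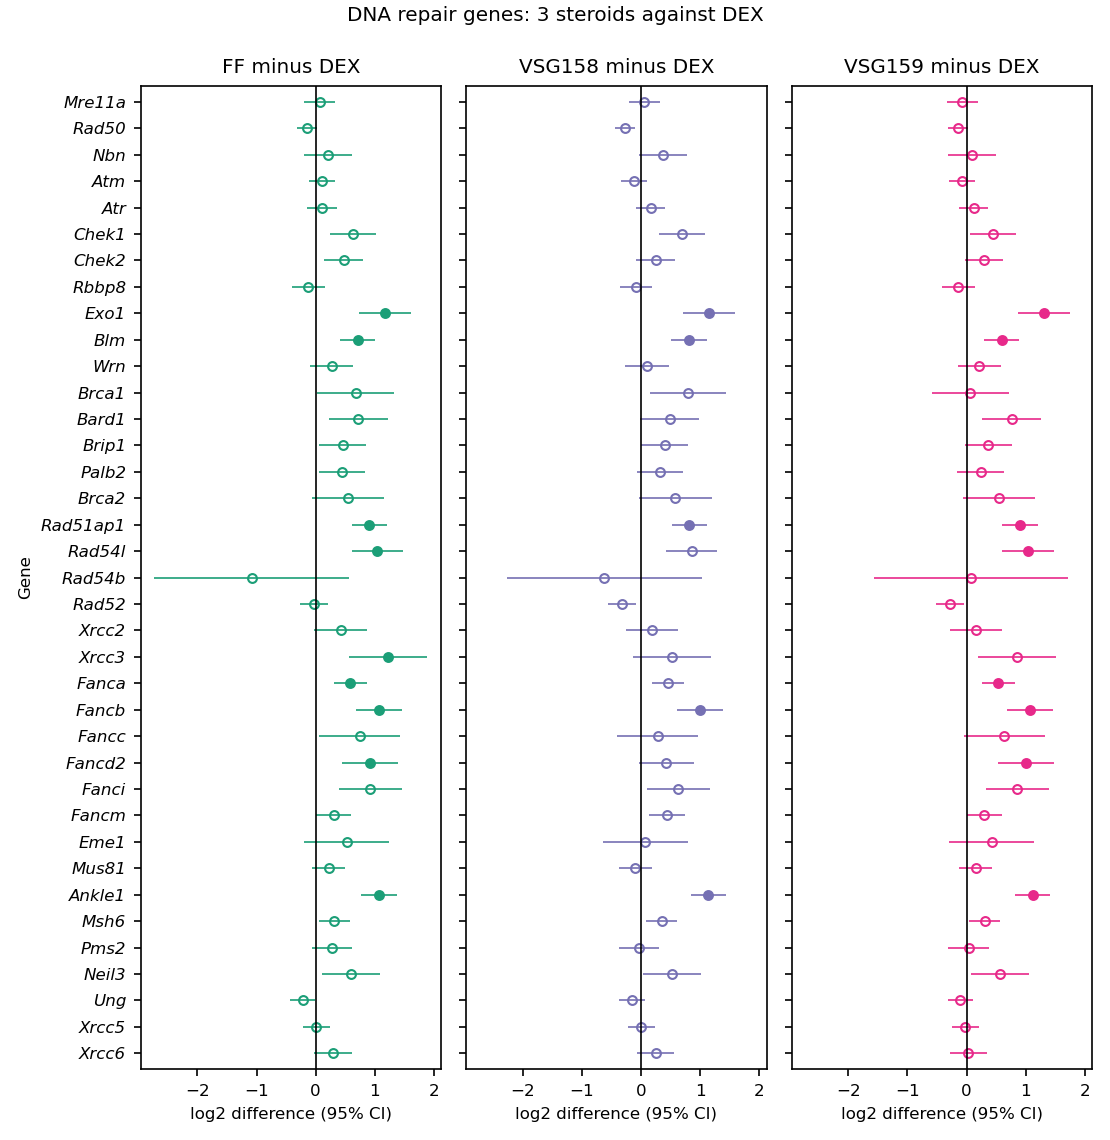
The log2 difference of each gene with FF, VSG158 or VSG159 from its level with DEX, with 95% confidence intervals from the fit over all 15 arrays (n = 3 per group). Filled points (adjusted p under 0.05) all lie to the right of 0, at 9, 5 and 8 genes, and Rad54b has the widest interval.

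These calls depended on the processing and on single arrays more than the vehicle comparisons did. With arrays scaled to their median instead of the 75th percentile, 0 members were called in any of the 3 comparisons, although the medians over the members were 0.53, 0.31 and 0.40 where the main values were 0.46, 0.35 and 0.30. FF and DEX shared slide 2, where 9 members were called within the slide. Xrcc3 (adjusted p = 0.0541) and Fanca (0.0581) lost their calls there, Fancc (0.0474) and Fanci (0.0446) gained them, and the other 7 were called in both fits. VSG158 lay on the other slide from DEX, and with slide as a fixed block 2 members were called with VSG158, Ankle1 higher and Rad54b lower, and 2 with VSG159, Ankle1 and Exo1. In FF against DEX, leaving out 1 array gave 4 members without DEX replicate 1, 3 without DEX replicate 3, and 4, 2 and 5 without FF replicates 1, 2 and 3. In VSG158 against DEX it gave 3 and 1 without DEX replicates 1 and 3 and 3 and 1 without VSG158 replicates 1 and 2. In VSG159 against DEX it gave 5 and 4 without DEX replicates 1 and 3 and 4 without VSG159 replicate 2. Ankle1 was called in all 3 comparisons whichever array was left out.

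Among FF, VSG158 and VSG159 no member and no gene of the array was called by limma in any of the 3 pairs (0% of all genes). At an unadjusted p under 0.05 there were 5 members and 1229 genes in VSG158 against FF, 1 and 1176 in VSG159 against FF, and 2 and 1202 in VSG158 against VSG159. The 95% confidence interval of a member's difference reached a median of 0.37 on either side and at most 1.65, for Rad54b. Xrcc3 differed most from FF with VSG158 (-0.70, interval -1.37 to -0.04), and Brca1 most from FF with VSG159 after Rad54b (-0.62, interval -1.27 to 0.03). Between VSG158 and VSG159, Brca1 differed by 0.73 (interval 0.09 to 1.38) and Fancd2 by -0.57 (interval -1.04 to -0.10). That these differences missed the threshold does not show that the 3 compounds act alike.

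The genes around these pathways give the setting. Of 29 other homologous recombination genes measured, 16, 16, 17 and 14 were higher for DEX, FF, VSG158 and VSG159, and 1, 1, 1 and 2 were lower. Psmc3ip, a cofactor of strand exchange, was 2.02 to 2.87 higher. Of 9 other Fanconi anemia genes 6, 6, 5 and 5 were higher, among them Ube2t, the E2 enzyme of the pathway (1.75 to 2.22). Of 5 other mismatch repair genes 3 were higher with each steroid. Of 21 other base excision and single-strand break repair genes 13, 13, 11 and 13 were higher and 2 lower with each, and Apex1, the abasic site endonuclease, was 2.74 to 3.07 higher.

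Further lists are given by their counts beside the shares of all genes printed above. Of 20 other damage signalling genes 10, 12, 10 and 12 were higher and 2, 2, 1 and 2 lower. Of 17 nucleotide excision repair genes 10, 9, 8 and 9 were higher and 2, 1, 0 and 1 lower, with medians of 0.18 to 0.32. Of 10 translesion synthesis genes 2 rose and 2 fell with DEX and 3 rose and 3 fell with each other steroid. Of 8 other end joining genes 2 or 3 were higher with each steroid and 1 or 2 lower. Of 20 genes induced by p53, 8, 7, 7 and 6 were higher and 7, 9, 9 and 9 lower, and Cdkn1a, which encodes the cell cycle inhibitor p21, fell by 1.61, 2.0, 2.09 and 2.14.

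Genes of DNA replication and mitosis moved with the repair genes. Of 34 replication genes 28, 30, 30 and 30 were higher than in vehicle, with medians of 1.30, 1.87, 1.84 and 1.84, and thymidine kinase Tk1 was 3.97 to 4.74 higher. Of 24 mitosis genes 20, 23, 23 and 22 were higher, with medians of 1.5, 2.25, 2.05 and 2.21, and cyclin A2 (Ccna2) was 3.32 to 4.47 higher. Against DEX, 18, 12 and 16 of the replication genes and 13, 7 and 12 of the mitosis genes were higher with FF, VSG158 and VSG159, and 0 were lower. Among 13 E2F and RB genes 9, 10, 8 and 9 were higher and 2, 2, 3 and 2 lower. In bulk RNA a larger share of cells in S or G2 phase and more RNA per cell cannot be told apart, and the part of cell division in the rise of the repair genes was not tested.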

How the data were processed

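Feature Extraction 10.7.3.1, run by the authors with the GE1_107_Sep09 protocol, made the scanner output, per the file headers, and probe positions there are in mouse build mm9. For each spot the deposited output holds a processed intensity (background already subtracted), a mean intensity before correction and a local background intensity. A deposited value table holds log2 values of the same arrays. Their scale and centring are not stated, the column medians were 5.94 to 5.99 and they correlated with the log2 processed signal at 0.993 to 0.997, so the table serves as an alternative alone. Of analysis tools, limma is named, with no version, per the submitters' processing notes. No per-sample column was left unused for want of a label.

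Control spots and spots flagged as outliers were left out, replicate spots were averaged. Values are log2 of the processed intensity after subtraction of each array's own 75th percentile, which was 695 to 1223 before logs. A probe was tested when well above background on at least 2 of 3 arrays of at least 1 group, and a gene is its tested probe with the highest mean. The number of arrays limits the precision. All 15 arrays were fitted with limma 3.58.1 in R 4.3.3, with group as the only term with tables read by the data.table package (version 1.17.8), and 10 contrasts were tested two-sided with Benjamini-Hochberg adjustment over all genes tested in each and called under 0.05. The code was tested on simulated data.

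A change against a group below background on all arrays is a bound: on each dim array the probe takes its own signal or, if that is larger, the faintest signal well above background there, and the bright group's mean is divided by the mean of these. Motifs were searched letter by letter in the RefSeq promoter windows, which serve names and sequences alone, since their build differs from the array's. Given in full are, in each role, the 2 members with the smallest F-test p, and every member called between compounds by at least 0.5, lower with a steroid, or called against vehicle with none. From each further list up to 3 genes with the smallest F-test p could be named. The members, roles, lists and motifs were chosen with earlier results of these data known, so no count over them is independent support. Alternatives were the background correction, the scaling, the value table, the filter, the mean over probes, slide and array position, the replicate block and leaving out each array. Some genes of the further lists are not reported here by name.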

Additional observations from a re-analysis of the deposited data

How the results depend on the processing

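The median over the members stayed above 0 against vehicle and against DEX under each alternative run, and the vehicle medians were smallest with normexp background correction and the 75th percentile, at 0.67, 0.81, 0.70 and 0.76 for DEX, FF, VSG158 and VSG159. Against DEX the smallest medians were 0.25 with FF, 0.02 with VSG158 and 0.14 with VSG159, where the main values were 0.46, 0.35 and 0.30. The VSG158 value, reached with array position, was near 0. Counts of members called against vehicle ran from 23 to 32 over the alternatives other than array position, which gave 0, 10, 27 and 20 in the same order. Leaving out 1 array gave 26 to 31, 29 to 31, 29 to 32 and 28 to 32. For FF against DEX there were 0 calls with median scaling, 4 without the filter, 1 with array position and 2 to 11 on leaving out 1 array. For VSG158 against DEX there were 0 with median scaling, 1 without the filter, 2 with slide as a fixed block, 0 as a random block, 0 with array position and 1 to 7 on leaving out 1 array. For VSG159 against DEX there were 0, 4, 2, 3 and 0 under the same alternatives in that order, 5 with normexp and quantile normalization, 2 within slide 2 (from 1 VSG159 array, assumed to vary like the other groups) and 4 to 10 on leaving out 1 array. The cause of these changes was not tested. Of the calls on single members, Palb2 with DEX turned to -0.24 with array position, and the uncalled Brca1 difference with VSG159 turned to 0.77 as the mean over its tested probes. With the replicate number as a block 30, 30, 29 and 29 members were called against vehicle in the order DEX, FF, VSG158 and VSG159, and 6, 5 and 6 for FF, VSG158 and VSG159 against DEX. The deviations of same-numbered samples from their group means correlated at -0.56 to 0.29. Array position can enter these deviations too, so they do not settle whether same-numbered samples share more than a number. Probes below background and the 3 arrays per group limit what small differences can be seen.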
